A study of Mus musculus with 12 samples.

Results

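The 45 genes described here encode enzymes that break down amino acids in the liver, together with those of the methionine cycle. They were chosen by name as a list, and the list was drawn up with earlier results of these data known. Each of the 45 was found under 1 row of the deposited table of 54532 genes. All 45 had a mean of at least 0.5 FPKM, the level required for testing, as did 13447 genes in all. FPKM are fragment counts divided by gene length and by a depth factor of the library. Poly-A RNA was sequenced from livers of mice with the label Apoe knockout, which lack apolipoprotein E, a particle protein of blood lipid transport, and both groups carry this knockout. The mice had been injected with AAV, a virus used to carry genes into liver cells. The control group received Gfp-AAV (6 libraries, numbered 1 to 6) and the other group Rspo2-AAV (6 libraries, numbered 1, 2, 4, 5, 6 and 7), which delivers R-spondin 2, an extracellular enhancer of Wnt/beta-catenin signalling. Age, sex, vector promoter, dose and time after injection were not given in the sources used here. No group without a vector or with an intact Apoe gene was compared.

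The liver takes apart most amino acids that the body does not use for protein. Nitrogen leaves through aminotransferases, ammonia-releasing lyases and dehydratases, glutaminase and glutamate dehydrogenase, and the carbon skeletons enter the citric acid cycle or glucose synthesis. In the methionine cycle, methionine is converted to S-adenosylmethionine, the methyl donor of the cell. After the methyl group is passed on, the product is split to homocysteine, which is either remethylated to methionine or sent to cysteine. Many of these enzymes are unevenly placed along the liver lobule. Those for histidine, serine and glutamine breakdown are known from hepatocytes near the portal vein, and Wnt/beta-catenin signalling is known to set the programme of hepatocytes near the central vein.

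Some libraries stood apart. Library totals recovered from the table ran from 14295644 to 22195576 reads. Rspo2 transcript was at 0 FPKM in each control and between 49.9 FPKM (number 2) and 573 FPKM (number 5) in the Rspo2-AAV libraries. Rspo2-AAV 2 also had the largest share of mitochondrial reads, 10.5% against 3.53% to 5.89% in the other 11. Markers of pancreatic acinar cells (19 genes) took 8.07% of reads in Rspo2-AAV 4, 0.725% in number 5 and 0.0830% in number 6, and at most 0.00838% in the other 9 libraries. Xist, which is made from an inactivated X chromosome, exceeded 1 FPKM in control 3 and in Rspo2-AAV 1 and 2 alone. Scd1, a desaturase chosen for this after its values were seen, was at 331 to 541 FPKM in the libraries numbered under 4 and at 2457 to 3662 FPKM in the rest. Of 7 tested hepatocyte markers, 0 were called in either direction by limma or by limma-voom, with 1 at an unadjusted p under 0.05 (21.5% of all tested genes were). Of 8 Kupffer cell markers 3 fell (summed level 591 to 1226 FPKM in controls and 396 to 755 FPKM in Rspo2-AAV), and of 7 stellate cell markers 3 fell (104 to 156 and 55.5 to 97.1 FPKM). By limma-voom 4 of these Kupffer and 5 of these stellate markers fell. All 8 and all 7 had a log2 change below 0 and an unadjusted p under 0.05 in limma. Of the 19 acinar markers 0 were called by limma or limma-voom, with 18 at an unadjusted p under 0.05, and 3 were at 0 in every control (summed level 4.72 to 16.3 FPKM in controls and 4.64 to 64447 FPKM in Rspo2-AAV). In bulk liver, fewer cells of a type and less RNA per cell cannot be told apart, and the part of these markers in the results was not tested.

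Of the 45 genes, 8 were lower and 8 higher in Rspo2-AAV than in control livers, and 29 were not called. A call required an adjusted p under 0.05 over all tested genes in limma, and each log2 change is a difference of mean log2(FPKM + 0.5), so that changes of low genes come out too small. Called genes made up 5.20% of all tested genes, 2.65% lower and 2.55% higher (356 and 343 genes, and 213 and 308 with libraries scaled to their nuclear protein-coding genes, where the counts of the 45 were the same). The lower genes were Hal, Uroc1, Amdhd1, Sds, Sdsl, Gls2, Aspg and Gldc, which act on histidine, serine and threonine, glutamine, asparagine and glycine. The higher genes were Mat1a, Gnmt, Ahcy and Bhmt of the methionine cycle and Hpd, Gpt, Bckdhb and Prodh, which act on tyrosine, alanine, branched-chain amino acids and proline. The groups did not overlap for 8 of the 45, against 3.24% of all tested genes. The median log2 change over the 45 was 0.21, ranging from -3.30 to 1.38, beside 0.00 over all tested genes. With each library scaled to the same FPKM sum (TPM scaling), 8 were lower and 5 higher, against 2.83% of all tested genes. The labels do not say that the libraries of a group came from separate mice, so the p-values measure the spread between these libraries. Of the 45 genes, 14 share bases with another tested gene, and whether the counting used strand is not given.

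**Figure D1:**
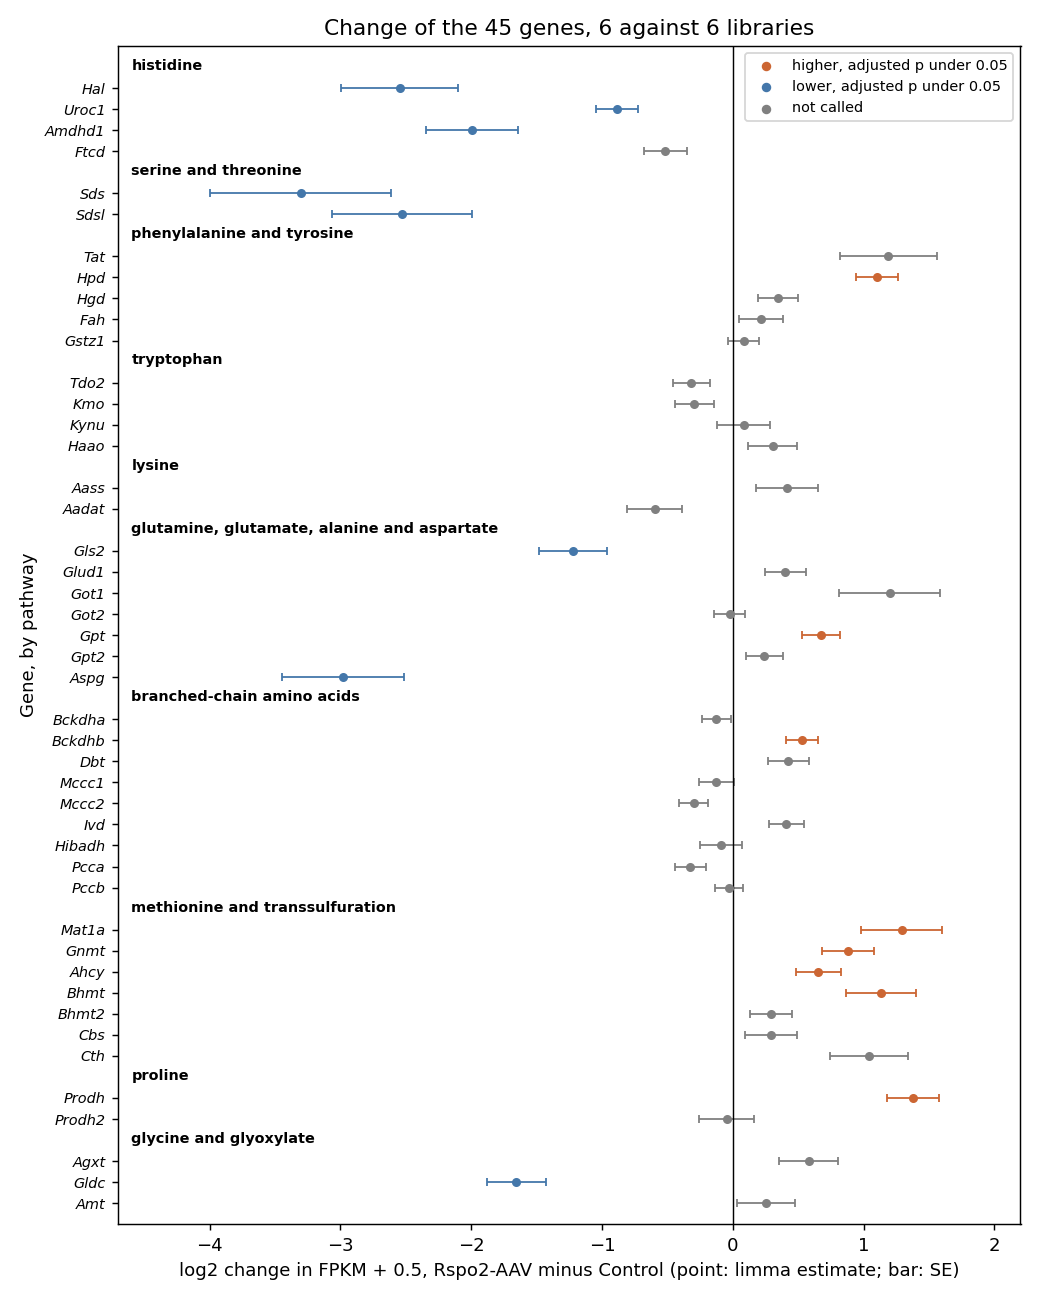
Log2 change (Rspo2-AAV minus control, 6 libraries each) of the 45 genes with its standard error, grouped by pathway. The histidine, serine and threonine genes all lie below 0 and the methionine and transsulfuration genes all lie above 0, and the 45 values run from -3.30 for Sds to 1.38 for Prodh.

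The promoter letters of 6 genes are shown because these 6 kept their call when any 1 library was left out and when Rspo2-AAV 4 and 5 were left out together: Hal, Amdhd1, Aspg and Gldc, which fell, and Hpd and Prodh, which rose. The windows are the 250 bases before the RefSeq start site (GRCm38.p6, the build of the files), 5′ to 3′ on the gene's own strand. That of Prodh lies wholly inside the span of the gene as deposited (18060357 to 18090203). Capitals mark a match to the TCF/LEF motif CTTTGAT or CTTTGAA, the sequence bound by the DNA-binding partners of beta-catenin, read on both strands.
Hal (lower), chr10:93488518-93488767, plus strand: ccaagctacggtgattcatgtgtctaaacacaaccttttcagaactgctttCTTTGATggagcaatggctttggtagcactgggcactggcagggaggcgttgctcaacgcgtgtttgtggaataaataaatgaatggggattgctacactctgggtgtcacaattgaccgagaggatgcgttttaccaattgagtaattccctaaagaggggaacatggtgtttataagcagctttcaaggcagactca
Amdhd1 (lower), chr10:93540034-93540283, minus strand: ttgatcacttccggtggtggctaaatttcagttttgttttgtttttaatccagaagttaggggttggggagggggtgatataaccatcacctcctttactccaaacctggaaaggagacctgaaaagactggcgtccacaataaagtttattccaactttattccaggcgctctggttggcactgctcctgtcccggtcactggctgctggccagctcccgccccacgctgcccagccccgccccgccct
Aspg (lower), chr12:112106433-112106682, plus strand: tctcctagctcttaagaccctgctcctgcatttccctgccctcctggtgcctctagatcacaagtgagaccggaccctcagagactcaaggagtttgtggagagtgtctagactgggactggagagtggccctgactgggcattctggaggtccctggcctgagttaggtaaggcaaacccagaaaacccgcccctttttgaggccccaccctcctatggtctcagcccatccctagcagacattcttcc
Gldc (lower), chr19:30175442-30175691, minus strand: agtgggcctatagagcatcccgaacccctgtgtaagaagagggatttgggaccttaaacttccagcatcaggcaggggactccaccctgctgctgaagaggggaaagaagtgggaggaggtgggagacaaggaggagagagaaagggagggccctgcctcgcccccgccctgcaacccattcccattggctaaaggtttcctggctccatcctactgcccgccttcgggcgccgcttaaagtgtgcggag
Hpd (higher), chr5:123182724-123182973, minus strand: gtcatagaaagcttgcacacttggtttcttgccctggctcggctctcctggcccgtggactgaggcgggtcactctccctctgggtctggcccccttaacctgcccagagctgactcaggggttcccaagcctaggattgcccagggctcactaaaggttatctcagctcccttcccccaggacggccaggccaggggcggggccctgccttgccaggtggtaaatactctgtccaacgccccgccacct
Prodh (higher), chr16:18089191-18089440, minus strand: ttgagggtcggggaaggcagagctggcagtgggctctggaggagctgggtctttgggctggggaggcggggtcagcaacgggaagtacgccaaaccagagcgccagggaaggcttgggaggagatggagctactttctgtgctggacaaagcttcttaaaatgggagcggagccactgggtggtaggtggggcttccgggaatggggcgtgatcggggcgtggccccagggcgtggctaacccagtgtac
Only the Hal window of these 6 held the TCF/LEF letters, 199 bases before the start. RefSeq windows were matched for 37 of the 45 genes. The TCF/LEF letters were found for 1 of 5 lower genes, 0 of 6 higher genes and 2 of 26 genes not called (Aass and Haao), beside 7.48% of all 32851 windows. The HNF4 motif CAAAGTCCA, which shares the letters CAAAG with the reverse of the TCF/LEF motif, was found in the window of Aadat alone and in 0.384% of all windows. A motif of C/EBP factors (TTGCGCAA, TTGCACAA or TTACGTAA) was found in that of Hgd alone and in 1.16% of all windows. Such matches describe these windows and say nothing of binding.

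Transcripts for histidine breakdown fell at the first 3 of its 4 measured steps. Here and below, levels are given with their median and mean ± SD over the 6 libraries of a group, and log2 changes with their SE. Hal, histidine ammonia-lyase, opens the pathway by releasing ammonia from histidine (ENSMUSG00000020017, chromosome 10, 93488768 to 93519304, plus strand). Its level ran from 25.0 to 85.7 FPKM in the controls (median 56.3, mean 57.0 ± 25.8) and from 4.85 to 32.1 FPKM in the Rspo2-AAV libraries (median 7.06, mean 10.9 ± 10.6). The groups overlapped through Rspo2-AAV 2, at 32.1 FPKM, while the other 5 Rspo2-AAV libraries lay at or under 9.61 FPKM. The log2 change of Hal was -2.55 ± 0.45 (adjusted p = 0.00724). Uroc1, urocanase, is the next enzyme (ENSMUSG00000034456, chromosome 6, 90333284 to 90364551, plus strand). It ran from 84.1 to 147 FPKM in the controls (median 131, mean 121 ± 27.3) and from 53.3 to 74.1 FPKM in the Rspo2-AAV libraries (median 63.1, mean 64.0 ± 8.66), so that every Rspo2-AAV library lay below every control. Its log2 change was -0.89 ± 0.16 (adjusted p = 0.00864). Amdhd1, which opens the imidazolone ring (ENSMUSG00000015890, chromosome 10, 93523338 to 93540033, minus strand), ran from 48.3 to 101 FPKM in the controls (median 75.8, mean 74.8 ± 19.8) and from 8.63 to 54.2 FPKM in the Rspo2-AAV libraries (median 16.1, mean 21.4 ± 16.6). Again Rspo2-AAV 2 alone overlapped the controls. Amdhd1 had a log2 change of -2.00 ± 0.35 (adjusted p = 0.00749). Ftcd, which passes the last one-carbon group to folate, ran from 135 to 179 FPKM in the controls (median 158, mean 158 ± 16.3) and from 76.8 to 157 FPKM in the Rspo2-AAV libraries (median 111, mean 113 ± 29.8) and was not called (log2 change -0.52 ± 0.17, adjusted p = 0.0946). Without Rspo2-AAV 2 it had -0.62 (adjusted p = 0.0276). Hal and Amdhd1 are neighbours on chromosome 10, 4.03 kb apart with their 3′ ends facing each other. The call of Uroc1 was lost without Rspo2-AAV 4 and 5 (-0.84, adjusted p = 0.0579).

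Both dehydratases of serine and threonine fell. Sds, serine dehydratase, yields pyruvate and ammonia from serine (ENSMUSG00000029597, chromosome 5, 120476526 to 120483932, plus strand). Its level ran from 76.8 to 207 FPKM in the controls (median 96.8, mean 109 ± 48.7) and from 2.76 to 112 FPKM in the Rspo2-AAV libraries (median 7.16, mean 24.5 ± 43.0). Control 3 was the highest control by far (207 FPKM against at most 102 FPKM), and Rspo2-AAV 2 stood at 112 FPKM within the control range while the other 5 lay at or under 14.5 FPKM. Sds had a log2 change of -3.30 ± 0.69 (adjusted p = 0.0170). Sdsl, a related dehydratase (ENSMUSG00000029596, chromosome 5, 120458186 to 120472810, minus strand), was measured at lower levels. It ran from 7.32 to 22.6 FPKM in the controls (median 10.2, mean 11.7 ± 5.53) and from 0.275 to 10.3 FPKM in the Rspo2-AAV libraries (median 1.10, mean 2.62 ± 3.83), with control 3 and Rspo2-AAV 2 again the highest of their groups and a log2 change of -2.53 ± 0.53 (adjusted p = 0.0177). The genes lie 3.72 kb apart on chromosome 5 on opposite strands. Without Rspo2-AAV 4 and 5, Sds had -2.94 (adjusted p = 0.0978) and Sdsl -2.35 (adjusted p = 0.0963), and neither was called. Among 6 other tested genes of serine and threonine metabolism, Gcat, which acts on a threonine breakdown product, rose (3.47 ± 1.27 in control and 8.22 ± 2.46 FPKM in Rspo2-AAV livers, log2 change 1.12 ± 0.26, adjusted p = 0.0286), and 5 were not called. Leaving out 1 library at a time ended the call of Gcat in 7 of 12 fits (without control 2, 4 or 6 or Rspo2-AAV 4, 5, 6 or 7, log2 changes 1.05 to 1.11, adjusted p 0.0532 to 0.0701).

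Among genes that act on glutamine, glutamate, alanine and the acidic amino acids and their amides, 2 of 7 fell and 1 rose. Aspg, an asparaginase (ENSMUSG00000037686, chromosome 12, 112106679 to 112127559, plus strand), ran from 46.4 to 77.2 FPKM in the controls (median 63.1, mean 61.8 ± 12.9) and from 3.25 to 36.1 FPKM in the Rspo2-AAV libraries (median 5.22, mean 10.8 ± 12.8). All Rspo2-AAV libraries lay below all controls, with number 2 (36.1 FPKM) nearest to them. Aspg had a log2 change of -2.98 ± 0.47 (adjusted p = 0.00455). Gls2, the liver glutaminase, frees ammonia from glutamine (ENSMUSG00000044005, chromosome 10, 128194457 to 128210004, plus strand). It ran from 45.1 to 121 FPKM in the controls (median 85.9, mean 86.0 ± 27.5) and from 25.9 to 64.0 FPKM in the Rspo2-AAV libraries (median 33.2, mean 36.6 ± 14.1), with control 2 and Rspo2-AAV 2 overlapping. Its log2 change was -1.22 ± 0.26 (adjusted p = 0.0178), and the call was lost without Rspo2-AAV 6 (-1.14, adjusted p = 0.0501) and without Rspo2-AAV 4 and 5 (-1.12, adjusted p = 0.0995). Glul, which makes glutamine near the central vein and is no member of the list, went the other way (549 ± 92.8 in control and 1506 ± 502 FPKM in Rspo2-AAV livers, log2 change 1.41 ± 0.21, adjusted p = 0.00326).

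Of the 4 aminotransferases among these genes, 1 rose and 3 were not called. Gpt, alanine aminotransferase 1, makes glutamate with the amino group of alanine (ENSMUSG00000022546, chromosome 15, 76695716 to 76699686, plus strand). It ran from 80.4 to 134 FPKM in the controls (median 118, mean 113 ± 21.6) and from 142 to 200.5 FPKM in the Rspo2-AAV libraries (median 181, mean 178 ± 20.9) without overlap, a log2 change of 0.67 ± 0.15 (adjusted p = 0.0207). Leaving out control 4 (0.62, adjusted p = 0.0522), Rspo2-AAV 5 (0.66, adjusted p = 0.0519) or Rspo2-AAV 6 (0.65, adjusted p = 0.0577) ended its call, as did leaving out Rspo2-AAV 4 and 5 together (0.68, adjusted p = 0.0948). Got1, the cytosolic aspartate aminotransferase, ran from 55.8 to 358 FPKM in the controls (median 78.2, mean 122 ± 117) and from 155 to 293 FPKM in the Rspo2-AAV libraries (median 239, mean 228 ± 59.9). Control 3, at 358 FPKM, lay above every Rspo2-AAV library, and the other 5 controls lay below them all. Got1 was not called with control 3 (1.20 ± 0.39, adjusted p = 0.0946) and was called without it (1.58, adjusted p = 0.00197). Glud1, glutamate dehydrogenase, ran from 205 to 369 FPKM in the controls (median 265, mean 272 ± 57.9) and from 283 to 413 FPKM in the Rspo2-AAV libraries (median 350.3, mean 356 ± 50.7) and was not called (0.40 ± 0.16, adjusted p = 0.158). For Got2, the mitochondrial aspartate aminotransferase, the log2 change was -0.02 ± 0.12 (adjusted p = 0.935), and for Gpt2, the mitochondrial alanine aminotransferase, 0.24 ± 0.14 (adjusted p = 0.346). Of 6 other tested genes, Ddo, D-aspartate oxidase, fell (2.60 ± 0.539 in control and 1.61 ± 0.230 FPKM in Rspo2-AAV livers, -0.54 ± 0.12, adjusted p = 0.0274), a call lost in 5 of 12 fits that left out 1 library (without control 2 or 6 or Rspo2-AAV 4, 5 or 6, log2 changes -0.54 to -0.47, adjusted p 0.0559 to 0.0689).

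Mat1a, Gnmt, Ahcy and Bhmt of the methionine cycle rose. Of the 7 members for methionine and transsulfuration, 4 were called higher, 3 were not called, and the median log2 change was 0.88. Their summed level was 2183 to 6234 FPKM in controls and 5655 to 7811 FPKM in Rspo2-AAV livers. Mat1a, the liver enzyme that makes S-adenosylmethionine (ENSMUSG00000037798, chromosome 14, 41105035 to 41124412, plus strand), ran from 567 to 2737 FPKM in the controls (median 946, mean 1147 ± 802) and from 2119 to 2659 FPKM in the Rspo2-AAV libraries (median 2466, mean 2427 ± 237). Control 3 (2737 FPKM) lay above all Rspo2-AAV libraries and the other 5 controls, at most 1045 FPKM, below them all. Its log2 change was 1.29 ± 0.31 (adjusted p = 0.0335). Gnmt, which uses S-adenosylmethionine to methylate glycine (ENSMUSG00000002769, chromosome 17, 46725664 to 46729168, minus strand), ran from 544 to 1238 FPKM in the controls (median 1006, mean 967 ± 230.1) and from 1292 to 1965 FPKM in the Rspo2-AAV libraries (median 1889.7, mean 1751 ± 284). No Rspo2-AAV value fell within the control range, and Rspo2-AAV 4, rich in acinar transcripts, had 1965 FPKM beside 1839 to 1963 FPKM in numbers 5 to 7. Rspo2-AAV 1 and 2 were lower, at 1507 and 1292 FPKM. The log2 change of Gnmt was 0.88 ± 0.20 (adjusted p = 0.0264).

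Ahcy, which splits S-adenosylhomocysteine to homocysteine (ENSMUSG00000027597, chromosome 2, 155059310 to 155074497, minus strand), ran from 398 to 813 FPKM in the controls (median 524, mean 547 ± 140.1) and from 722 to 1008 FPKM in the Rspo2-AAV libraries (median 826, mean 848 ± 121). Control 3 was again the highest control and overlapped the lower Rspo2-AAV libraries. Its log2 change was 0.65 ± 0.17 (adjusted p = 0.0453). Bhmt, which remethylates homocysteine with betaine (ENSMUSG00000074768, chromosome 13, 93616675 to 93637961, minus strand), ran from 419 to 859 FPKM in the controls (median 651, mean 615 ± 162) and from 674 to 1982 FPKM in the Rspo2-AAV libraries (median 1475, mean 1391 ± 484), overlapping through Rspo2-AAV 1. Its log2 change was 1.13 ± 0.27 (adjusted p = 0.0311). Bhmt2, its neighbour 17.8 kb away on chromosome 13, uses another methyl donor. It ran from 74.7 to 115 FPKM in the controls (median 96.7, mean 94.2 ± 15.5) and from 84.9 to 146 FPKM in the Rspo2-AAV libraries (median 117, mean 116 ± 24.1) and was not called (0.29 ± 0.16, adjusted p = 0.314). These 4 calls were sensitive to leaving out 1 library, and so were the calls over all tested genes. With 1 library left out, those ran from 162 higher and 170 lower (without Rspo2-AAV 6) to 421 and 492 (without control 3). Over all 12 libraries they were 343 and 356. When 1 library was left out, the call was lost in 9 of 12 fits for Mat1a (without control 1, 2, 4, 5 or 6 or Rspo2-AAV 4, 5, 6 or 7, log2 changes 1.13 to 1.31, adjusted p 0.0525 to 0.0774), in 6 for Gnmt (without control 4 or 6 or Rspo2-AAV 4, 5, 6 or 7, log2 changes 0.85 to 0.90, adjusted p 0.0521 to 0.0685), in 11 for Ahcy (without control 1, 2, 4, 5 or 6 or Rspo2-AAV 1, 2, 4, 5, 6 or 7, log2 changes 0.57 to 0.70, adjusted p 0.0546 to 0.103) and in 7 for Bhmt (without control 2, 4, 5 or 6 or Rspo2-AAV 4, 5 or 6, log2 changes 1.03 to 1.16, adjusted p 0.0549 to 0.0779). Without Rspo2-AAV 4 and 5 none was called: Mat1a was at 1.29 (adjusted p = 0.125), Gnmt at 0.80 (adjusted p = 0.137), Ahcy at 0.68 (adjusted p = 0.137) and Bhmt at 1.04 (adjusted p = 0.135). TPM scaling ended the calls of Mat1a (1.30, adjusted p = 0.0539), Gnmt (0.89, adjusted p = 0.0524) and Ahcy (0.66, adjusted p = 0.110), and testing without a filter on low values ended all 4.

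Of the enzymes that lead homocysteine on to cysteine, neither was called. Cth, which releases cysteine from cystathionine, ran from 58.4 to 285 FPKM in the controls (median 109, mean 129 ± 79.1) and from 182 to 299 FPKM in the Rspo2-AAV libraries (median 240.2, mean 241 ± 49.6). Control 3, at 285 FPKM, lay within the Rspo2-AAV range, and the other 5 controls, at most 117 FPKM, lay below it. Cth was at 1.04 ± 0.30 (adjusted p = 0.0615), and without control 3 it was called (1.30, adjusted p = 0.00381). Cbs, which makes cystathionine, ran from 94.5 to 199 FPKM in the controls (median 146, mean 147 ± 42.8) and from 126 to 217 FPKM in the Rspo2-AAV libraries (median 179, mean 176 ± 30.1), with a log2 change of 0.29 ± 0.20 (adjusted p = 0.432). Of 25 other tested genes of these pathways, 1 rose and 1 fell. Nnmt, which spends methyl groups on nicotinamide, rose (96.1 ± 56.4 in control and 224 ± 58.7 FPKM in Rspo2-AAV livers, 1.38 ± 0.35, adjusted p = 0.0401), and Sqor, which oxidises sulfide, fell (30.6 ± 3.84 in control and 21.9 ± 2.09 FPKM in Rspo2-AAV livers, -0.47 ± 0.11, adjusted p = 0.0255). Nnmt lost its call in 9 of 12 fits that left out 1 library (without control 2, 4, 5 or 6 or Rspo2-AAV 2, 4, 5, 6 or 7, log2 changes 1.15 to 1.44, adjusted p 0.0555 to 0.0939) and Sqor in 5 (without control 4, 5 or 6 or Rspo2-AAV 5 or 6, log2 changes -0.47 to -0.43, adjusted p 0.0557 to 0.0658).

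**Figure D2:**
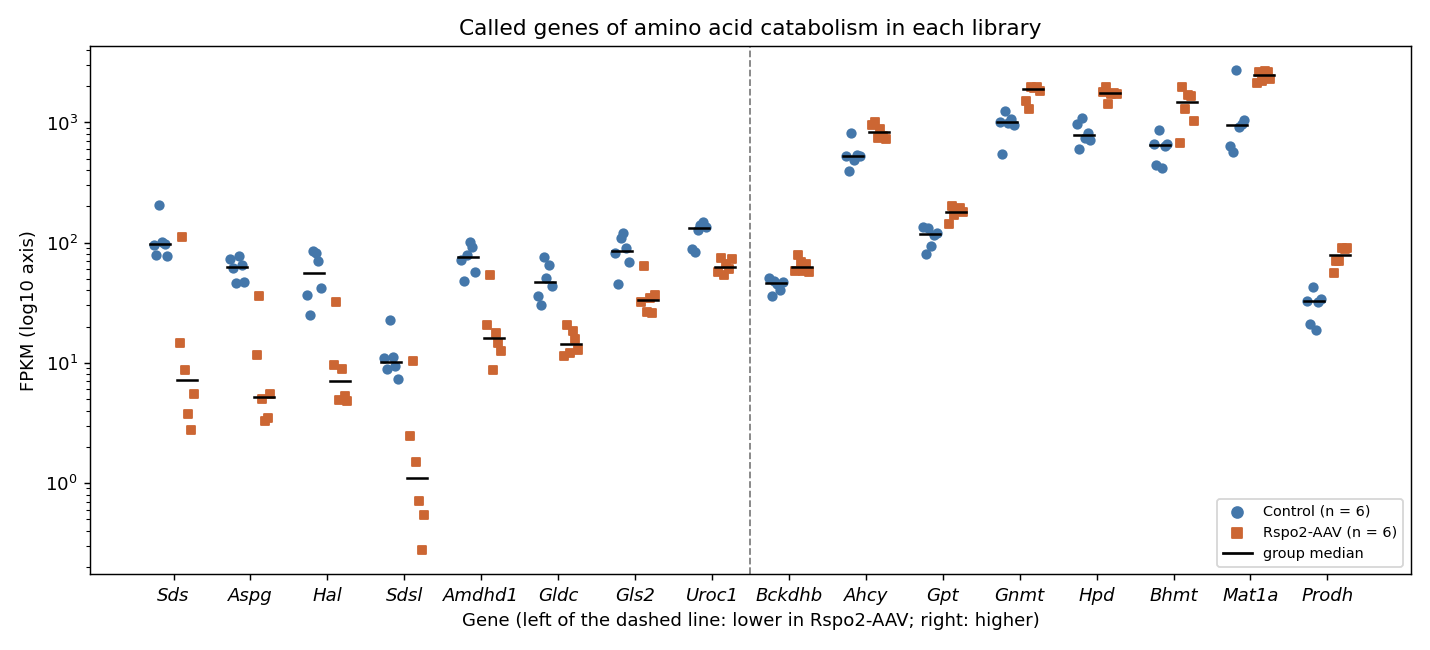
FPKM on a log10 axis of the 16 called genes in each of 6 control (circles) and 6 Rspo2-AAV (squares) libraries, in order of number, with group medians as bars. For each of the 8 lower genes the highest Rspo2-AAV value belongs to number 2, and Mat1a has 1 control, number 3, above all Rspo2-AAV libraries.

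Of 5 members for phenylalanine and tyrosine, 1 rose, the enzyme of the second step of tyrosine breakdown. Hpd, 4-hydroxyphenylpyruvate dioxygenase (ENSMUSG00000029445, chromosome 5, 123171807 to 123182727, minus strand), ran from 605 to 1087 FPKM in the controls (median 781, mean 822 ± 178) and from 1431 to 1981 FPKM in the Rspo2-AAV libraries (median 1752, mean 1741 ± 178). The lowest Rspo2-AAV library lay above the highest control. Hpd had a log2 change of 1.10 ± 0.16 (adjusted p = 0.00304). Tat, tyrosine aminotransferase, precedes it and answers to glucocorticoids and glucagon. It ran from 272 to 1269 FPKM in the controls (median 332, mean 477 ± 389) and from 449 to 1269 FPKM in the Rspo2-AAV libraries (median 1055, mean 962 ± 305), with control 3 at the level of the highest Rspo2-AAV library and the other 5 controls, at most 364 FPKM, below all of them. Tat was not called (1.19 ± 0.37, adjusted p = 0.0860), and was called without control 3 (1.52, adjusted p = 0.00451) or without Rspo2-AAV 1 (1.39, adjusted p = 0.0404). The later enzymes Hgd (homogentisate dioxygenase), Gstz1 (maleylacetoacetate isomerase) and Fah (fumarylacetoacetate hydrolase) were not called, at 0.35 ± 0.15 (adjusted p = 0.210), 0.08 ± 0.12 (adjusted p = 0.742) and 0.21 ± 0.17 (adjusted p = 0.496). Of these Fah, which closes the pathway, ran from 254 to 391 FPKM in the controls (median 271, mean 293 ± 51.3) and from 276 to 519 FPKM in the Rspo2-AAV libraries (median 314, mean 343 ± 88.0). Among other tested genes of these pathways, Qdpr, which regenerates the cofactor tetrahydrobiopterin, rose with overlap between the groups (114 ± 28.5 in control and 208 ± 60.4 FPKM in Rspo2-AAV livers, 0.85 ± 0.23, adjusted p = 0.0495). Qdpr lost its call in 9 of 12 fits that left out 1 library (without control 2, 3, 4, 5 or 6 or Rspo2-AAV 4, 5, 6 or 7, log2 changes 0.75 to 0.91, adjusted p 0.0639 to 0.117).

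Over all 12 libraries, the highest log2 change of the 45 was that of Prodh. Prodh, the proline dehydrogenase that begins proline oxidation (ENSMUSG00000003526, chromosome 16, 18060357 to 18090203, minus strand), ran from 18.6 to 42.5 FPKM in the controls (median 32.6, mean 30.2 ± 8.82) and from 56.4 to 89.8 FPKM in the Rspo2-AAV libraries (median 79.2, mean 77.4 ± 13.7), with no overlap. Its log2 change was 1.38 ± 0.20 (adjusted p = 0.00304). Prodh shares 11276 bases with Dgcr6 (mean 15.5 FPKM over all libraries) on the other strand. Prodh2, which acts on hydroxyproline, ran from 55.9 to 98.8 FPKM in the controls (median 90.4, mean 83.6 ± 16.2) and from 58.4 to 139 FPKM in the Rspo2-AAV libraries (median 71.6, mean 82.9 ± 29.5) and was not called (-0.05 ± 0.21, adjusted p = 0.925). Rspo2-AAV 2, at 139 FPKM, was its highest library. Of 7 other tested genes of proline metabolism, Oat, which links ornithine to the same intermediate and is known from pericentral hepatocytes, rose without overlap (685 ± 98.7 in control and 1875 ± 741 FPKM in Rspo2-AAV livers, 1.35 ± 0.26, adjusted p = 0.0111). Oat kept its call when any 1 library was left out and lost it without Rspo2-AAV 4 and 5 (1.07, adjusted p = 0.0677).

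Of 3 members for glycine and glyoxylate, 1 fell, the decarboxylase of glycine cleavage. Gldc, which carries out the first step of the mitochondrial glycine cleavage system (ENSMUSG00000024827, chromosome 19, 30098449 to 30175418, minus strand), ran from 30.0 to 75.7 FPKM in the controls (median 46.9, mean 50.2 ± 17.4) and from 11.3 to 20.7 FPKM in the Rspo2-AAV libraries (median 14.3, mean 15.2 ± 3.78). All controls lay above all Rspo2-AAV libraries. The log2 change of Gldc was -1.65 ± 0.23 (adjusted p = 0.00247). Amt, the aminomethyltransferase of the same system, ran from 17.8 to 28.4 FPKM in the controls (median 21.1, mean 21.8 ± 3.58) and from 15.0 to 43.7 FPKM in the Rspo2-AAV libraries (median 24.9, mean 27.5 ± 10.7) and was not called (0.25 ± 0.22, adjusted p = 0.562). Agxt, which turns glyoxylate into glycine, ran from 74.7 to 185 FPKM in the controls (median 152, mean 136 ± 42.9) and from 162 to 274 FPKM in the Rspo2-AAV libraries (median 179, mean 198 ± 44.2) and was not called (0.58 ± 0.23, adjusted p = 0.161). Of 7 other tested genes of this group 0 were called by limma or limma-voom, with 2 at an unadjusted p under 0.05.

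Of 9 members for branched-chain amino acids, 1 rose and 8 were not called. Bckdhb, a subunit of the branched-chain ketoacid dehydrogenase (ENSMUSG00000032263, chromosome 9, 83925145 to 84124240, plus strand), ran from 35.8 to 51.2 FPKM in the controls (median 45.7, mean 44.5 ± 5.63) and from 56.7 to 79.1 FPKM in the Rspo2-AAV libraries (median 62.2, mean 64.5 ± 8.84) without overlap (0.53 ± 0.12, adjusted p = 0.0251). Leaving out 1 library ended its call in 5 of 12 fits (without control 2, 4 or 5 or Rspo2-AAV 4 or 6, log2 changes 0.47 to 0.53, adjusted p 0.0521 to 0.0630), and leaving out Rspo2-AAV 4 and 5 together did so too (0.54, adjusted p = 0.0962). The partner subunits Bckdha and Dbt were at -0.13 ± 0.11 (adjusted p = 0.559) and 0.43 ± 0.16 (adjusted p = 0.142). Ivd, the isovaleryl-CoA dehydrogenase of leucine breakdown, ran from 31.0 to 47.9 FPKM in the controls (median 40.2, mean 39.3 ± 6.58) and from 42.3 to 60.4 FPKM in the Rspo2-AAV libraries (median 50.9, mean 52.1 ± 6.97), with a log2 change of 0.41 ± 0.13 (adjusted p = 0.0946). Pccb, a subunit of propionyl-CoA carboxylase, ran from 58.7 to 78.6 FPKM in the controls (median 70.8, mean 69.3 ± 7.97) and from 58.2 to 73.8 FPKM in the Rspo2-AAV libraries (median 68.1, mean 67.7 ± 5.86), with a log2 change of -0.03 ± 0.11 (adjusted p = 0.909). Its partner Pcca, the leucine enzymes Mccc1 and Mccc2 and the valine enzyme Hibadh had log2 changes between -0.32 and -0.09, with adjusted p from 0.131 to 0.802. Of 15 other tested genes, Mmab, an enzyme of the cobalamin cofactor, rose (4.12 ± 0.883 in control and 12.4 ± 5.89 FPKM in Rspo2-AAV livers, 1.35 ± 0.30, adjusted p = 0.0242). Ppm1k, the phosphatase that activates the ketoacid dehydrogenase, fell (14.0 ± 3.56 in control and 7.30 ± 4.04 FPKM in Rspo2-AAV livers, -0.99 ± 0.26, adjusted p = 0.0486). Mmab lost its call in 6 of 12 fits that left out 1 library (without control 2, 4 or 6 or Rspo2-AAV 5, 6 or 7, log2 changes 1.21 to 1.37, adjusted p 0.0503 to 0.0604) and Ppm1k in 10 (without control 1, 2, 4, 5 or 6 or Rspo2-AAV 1, 4, 5, 6 or 7, log2 changes -1.06 to -0.87, adjusted p 0.0584 to 0.113).

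No member for tryptophan or lysine was called by limma or limma-voom, with 1 of 4 and 1 of 2 at an unadjusted p under 0.05, beside 21.5% of all tested genes. Tdo2, the dioxygenase that opens tryptophan breakdown, ran from 252 to 392 FPKM in the controls (median 299, mean 306 ± 45.9) and from 204 to 322 FPKM in the Rspo2-AAV libraries (median 229, mean 246 ± 42.5), with a log2 change of -0.32 ± 0.14 (adjusted p = 0.214). Haao, a late enzyme on the way to nicotinamide cofactors, ran from 266 to 470.1 FPKM in the controls (median 316, mean 335 ± 77.9) and from 278 to 559 FPKM in the Rspo2-AAV libraries (median 412, mean 414 ± 89.7), with a log2 change of 0.30 ± 0.18 (adjusted p = 0.373). Kmo and Kynu, the hydroxylase and hydrolase of kynurenine, were at -0.29 ± 0.15 (adjusted p = 0.272) and 0.08 ± 0.20 (adjusted p = 0.858). Aass, which starts lysine breakdown, ran from 69.4 to 177 FPKM in the controls (median 88.7, mean 102 ± 38.5) and from 96.4 to 214 FPKM in the Rspo2-AAV libraries (median 120.2, mean 135 ± 43.2), with a log2 change of 0.42 ± 0.24 (adjusted p = 0.335). Aadat, the aminoadipate aminotransferase of a later step, ran from 41.4 to 75.8 FPKM in the controls (median 49.6, mean 54.3 ± 13.4) and from 28.4 to 63.0 FPKM in the Rspo2-AAV libraries (median 31.8, mean 36.4 ± 13.3), with a log2 change of -0.60 ± 0.21 (adjusted p = 0.115), and was called without Rspo2-AAV 2 (-0.77, adjusted p = 0.0129). Among other genes of these pathways, 1 of 6 and 1 of 5 fell. Ido2, another tryptophan dioxygenase, fell (26.9 ± 4.13 in control and 15.4 ± 5.15 FPKM in Rspo2-AAV livers, -0.84 ± 0.22, adjusted p = 0.0423). Its call was lost in 9 of 12 fits that left out 1 library (without control 1, 2, 4, 5 or 6 or Rspo2-AAV 2, 4, 5 or 6, log2 changes -0.92 to -0.79, adjusted p 0.0549 to 0.0935). Hykk, hydroxylysine kinase, fell without overlap (12.2 ± 2.78 in control and 5.51 ± 1.27 FPKM in Rspo2-AAV livers, -1.07 ± 0.16, adjusted p = 0.00339) and kept its call in all 12.

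Of 83 other tested genes of these pathways (91 listed), 6 rose and 5 fell, with a median log2 change of -0.02. Of these 11, Hykk alone kept its call without Rspo2-AAV 4 and 5 (-1.02, adjusted p = 0.0236). Of 10 transcription factors and receptors known to control hepatic amino acid breakdown, among them the glucagon receptor Gcgr, Klf15, Hnf4a, Cebpa and the glucocorticoid receptor Nr3c1, 0 were called by limma or limma-voom, with 1 at an unadjusted p under 0.05. Their log2 changes ran from -0.38 to 0.62. Of 9 tested landmark genes of the liver lobule, 4 rose and 2 fell. Among these were Axin2 (1.41, adjusted p = 0.00273), Cyp2e1 (0.88, adjusted p = 0.0381) and Cdh1 (-2.25, adjusted p = 0.00107). Cyp2e1 lost its call in 17 of 26 alternatives. Cyp2f2, a periportal landmark, fell from 454 ± 122 to 22.3 ± 34.7 FPKM (-5.42 ± 0.69, adjusted p = 0.00158), with Rspo2-AAV 2 highest at 90.9 FPKM. The urea cycle genes Cps1 and Ass1, also periportal, were not called (0.27 ± 0.37 and 1.10 ± 0.31, adjusted p = 0.736 and 0.0585).

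**Figure D3:**
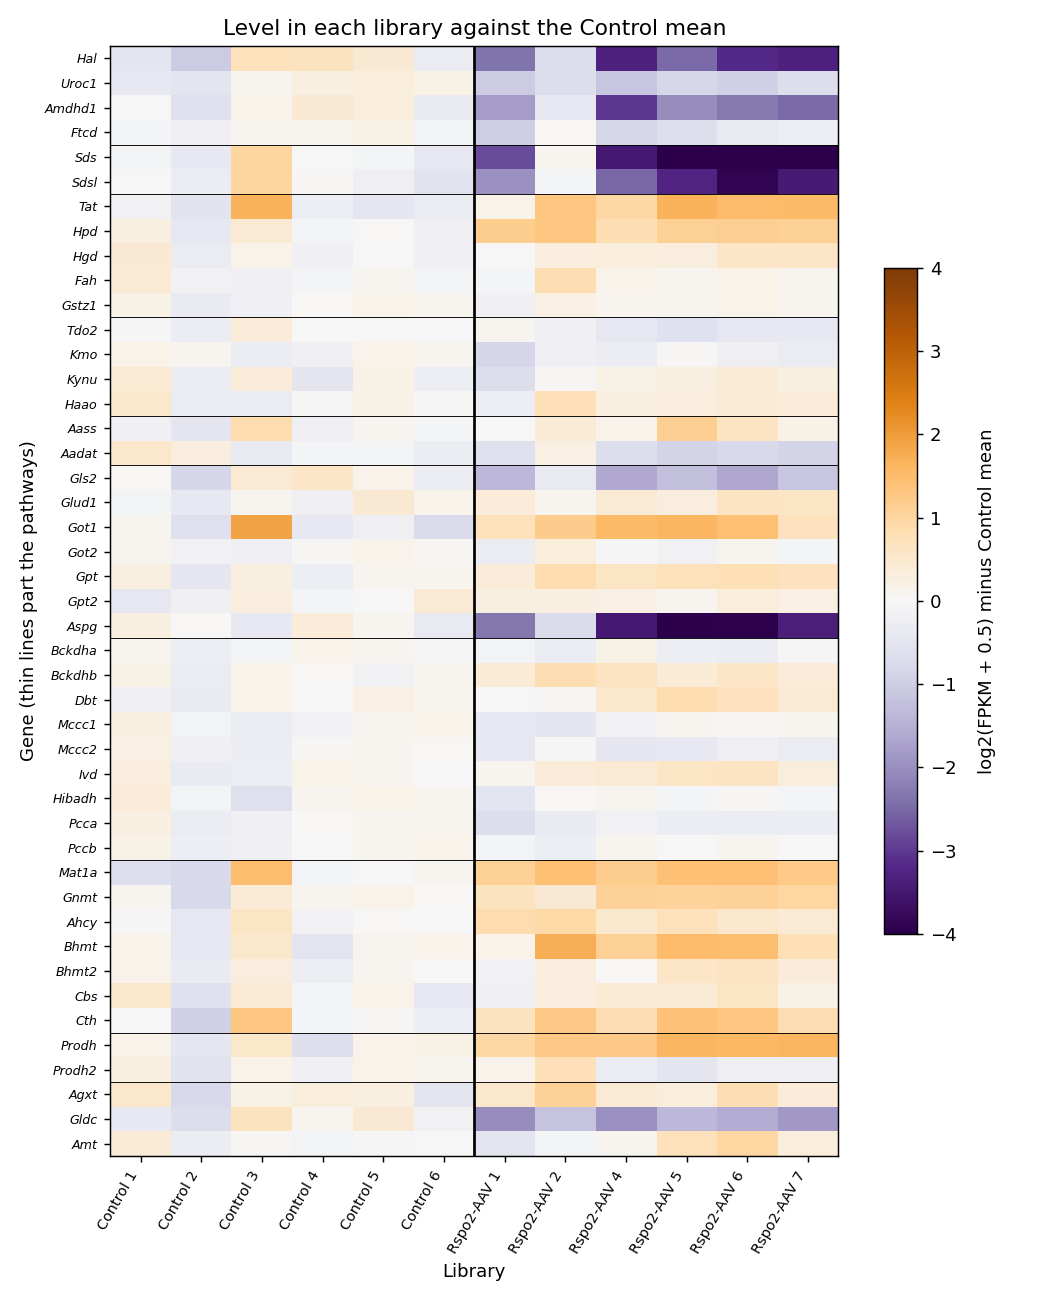
Level of each of the 45 genes in each library as log2(FPKM + 0.5) minus the control mean; colours end at 4 on either side, and lower values take the end colour. Rspo2-AAV 2 is paler than its group for Hal, Amdhd1, Sds, Sdsl and Aspg, and control 3 resembles the Rspo2-AAV libraries for Tat, Got1, Mat1a and Cth.

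The libraries that stood apart moved with these results. For all 8 lower genes the highest Rspo2-AAV value was that of number 2, the library with the least Rspo2 and the most mitochondrial reads. For Uroc1 number 7 was close to it (74.1 FPKM in number 2 and 73.4 FPKM in number 7). For Gldc number 5 was near (20.7 FPKM in number 2 and 18.4 FPKM in number 5). For 6 of the 8 higher genes the highest control was number 3. Over all tested genes, Rspo2-AAV 1 correlated best with control 3 (0.958), and within its own group best with Rspo2-AAV 2 (0.942). Rspo2-AAV 2 correlated at 0.944 with control 1 and at 0.942 with Rspo2-AAV 1. The part of the Rspo2 level, of the mitochondrial share and of Xist in these values was not tested. Without Rspo2-AAV 2, 10 of the 45 genes were lower and 7 higher, against 6.72% of all tested genes called. Without control 3, 8 were lower and 11 higher, against 6.79%. Without the 3 Xist libraries 12 were lower and 12 higher, against 12.8% of all tested genes called in that set, which holds no Rspo2-AAV library numbered under 4. Without Rspo2-AAV 4 and 5, 4 were lower and 2 higher, against 1.76% of all tested genes.

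The 16 called genes had the same sign within both sets of library numbers, and 14 of them lay farther from 0 within numbers 4 to 7. Within numbers 4 to 7 (3 control, 4 Rspo2-AAV), 13 genes were lower and 14 higher, against 13.3% of all tested genes. Within numbers 1 to 3 (3 control, 2 Rspo2-AAV) limma called 0 of the 45 genes and 0.00% of all 13447 tested genes, with 4 of 45 and 955 of 13447 at an unadjusted p under 0.05. Sds had a log2 change of -1.50 within numbers 1 to 3 and -4.12 within numbers 4 to 7, Hal -1.26 and -3.33, and Aspg -1.51 and -3.73. Gldc (-1.48 and -1.81), Hpd (1.13 and 1.14) and Mat1a (1.24 and 1.32) were closer. The difference between the sets was not tested. The numbers 1 to 3 include Rspo2-AAV 2, 1 of only 2 Rspo2-AAV libraries there.

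**Figure D4:**
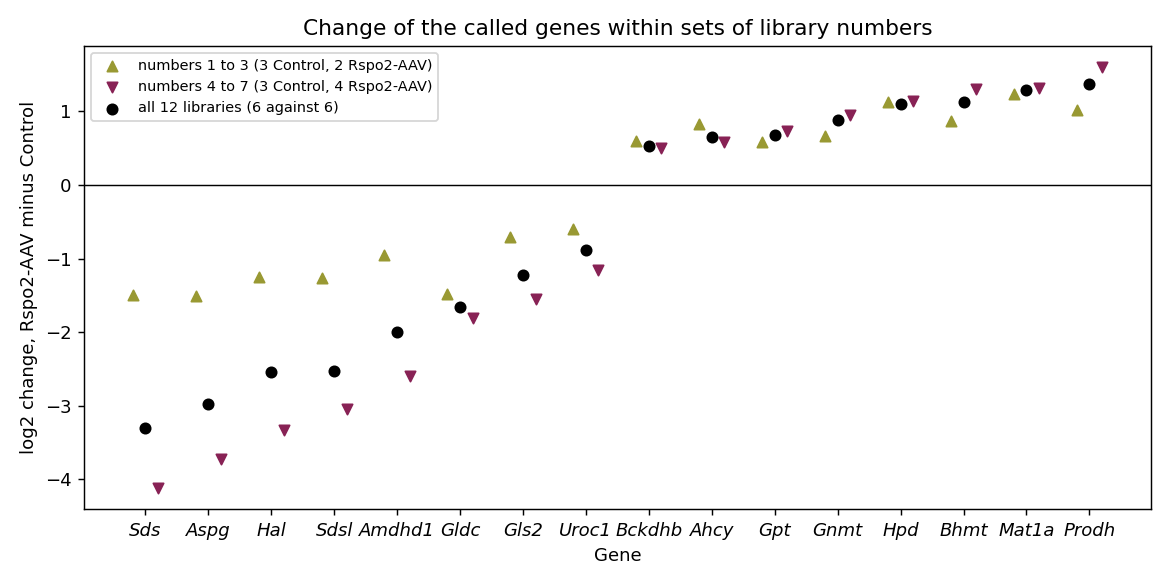
Log2 change (Rspo2-AAV minus control) of the 16 called genes over all 12 libraries and within library numbers 1 to 3 and 4 to 7. For 14 of the 16 the change lies farther from 0 within numbers 4 to 7, as for Sds at -4.12 against -1.50, and each gene keeps its sign.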

How the data were processed

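Poly-A RNA was measured in 12 mouse liver libraries, 6 with Gfp-AAV and 6 with Rspo2-AAV. The deposited values are FPKM per gene made by the authors. The tools named, without role or order, are featureCounts 1.5.0-p3, DESeq2 1.20.0 and HISAT2 2.0.5 on GRCm38 (mm10), per the submitters' processing notes. Strand use in counting is not given in the sources used here. Whether libraries are separate animals was not given either. FPKM times gene length gave whole reads within 0.01 reads in all 12 libraries (14295644 to 22195576 reads), and these entered limma-voom as an alternative. The recovered totals were 0.879 to 1.16 times the depth factors held in the FPKM. In limma-voom those depth factors served as library sizes, so it kept the deposited scaling. The edgeR and DESeq2 tests were not run.

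The 13447 genes whose mean reached 0.5 FPKM were tested on log2(FPKM + 0.5) with limma 3.58.1 (trended variance, R 4.3.3), without covariates, and p-values were adjusted by Benjamini-Hochberg over all of them. A call is an adjusted p under 0.05. On simulated data with 13447 genes this comparison recovered 75% of 2-fold and 92% of 4-fold changes, with 7 false calls among 174. Each simulated gene was drawn on its own from a normal distribution, without libraries that stood apart. These rates therefore need not hold for the libraries described here. Alternatives changed the pseudocount, filter, scaling, test, number terms and libraries. The scaling to nuclear protein-coding genes, and the libraries of the replicate block without its term, were added after seeing the data.

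The 45 members, the lists of other pathway and marker genes and the division of numbers at 4 were chosen with earlier results of these data known. All 45 members are named, with full values for called members and for the 2 uncalled members per pathway with the highest mean. Other pathway genes are named where called, up to 3 per pathway by smallest p, and 1 of them is not reported here.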

Additional observations from a re-analysis of the deposited data

Results flagged for a closer look

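Of 90 groups of 6 libraries examined (45 genes, control and Rspo2-AAV), 11 held 1 library far from the other 5 by Dixon's test at the 95% level on log2(FPKM + 0.5). Chance alone gives about 1 in 20 groups. Control 3 accounted for 4 of the 11. It was high for Sds (207 FPKM, others 76.8 to 102 FPKM), Sdsl (22.6 FPKM, others 7.32 to 11.2 FPKM), Tat (1269 FPKM, others 272 to 364 FPKM) and Got1 (358 FPKM, others 55.8 to 102 FPKM). Rspo2-AAV 2 accounted for 3. It was high for Hal (32.1 FPKM, others 4.85 to 9.61 FPKM), Fah (519 FPKM, others 276 to 329 FPKM) and Aadat (63.0 FPKM, others 28.4 to 34.7 FPKM). Rspo2-AAV 1 accounted for another 3. It was low for Kynu (17.4 FPKM, others 29.0 to 36.4 FPKM), Hibadh (21.8 FPKM, others 29.7 to 33.8 FPKM) and Pcca (10.5 FPKM, others 13.3 to 15.2 FPKM). Control 2 was low for Gnmt (544 FPKM, others 945 to 1238 FPKM).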

How the results depend on the processing

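The 16 called genes kept their sign in all 26 alternatives, and 9 of them lost no call when any 1 library was left out. The count of 8 higher members became 5 with libraries rescaled to a common sum, 4 without a filter on low values, 14 within numbers 4 to 7, 0 within numbers 1 to 3, 2 without Rspo2-AAV 4 and 5, and between 2 and 11 with 1 library left out. Within numbers 1 to 3 no gene of all 13447 tested was called in either direction. The count of 8 lower members became 13 within numbers 4 to 7, 0 within numbers 1 to 3, 4 without Rspo2-AAV 4 and 5, 5 in the 10 libraries of the replicate block without its term, and between 7 and 10 with 1 library left out. Counts of other pathway genes (6 higher, 5 lower) became 2 and 2 without the filter, 13 and 11 within numbers 4 to 7, 0 and 0 within numbers 1 to 3, 0 and 1 without Rspo2-AAV 4 and 5, and 11 and 12 without the 3 Xist libraries. Their lower count became 2 with libraries rescaled to a common sum and 2 with scaling to nuclear protein-coding genes. With 1 library left out, 2 to 9 were higher and 1 to 8 lower. Over all tested genes, 343 higher and 356 lower calls became 853 and 931 within numbers 4 to 7, 117 and 120 without Rspo2-AAV 4 and 5, and 195 and 216 without the filter. They became 294 and 342 in the 10 libraries of the replicate block without its term. With 1 library left out they ran from 162 and 170 (without Rspo2-AAV 6) to 421 and 492 (without control 3). The cause was not tested.

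Deviations of same-numbered libraries from their group means correlated at -0.25 to 0.16 over 5 pairs, with 3 of 10 libraries closest to their own number. The labels do not say whether the numbers pair the libraries, and these correlations cannot show how the libraries were made. The replicate block used the 10 libraries whose number occurs in both groups, and so left out control 3 and Rspo2-AAV 7. With the number as a replicate block, 5 members were higher and 2 lower, and 1 other gene each way. The higher members were Hpd, Mat1a and Prodh, with Got1 and Cth, which were not called over all 12 libraries. Aspg and Gldc were the lower ones, and Hal and Amdhd1 were among those that lost their call (adjusted p = 0.0911 and 0.0870). The calls over all tested genes were 145 higher and 152 lower with the block. In the same libraries without it they were 294 and 342.

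Only uncalled genes changed sign. Kynu had -0.48 within numbers 1 to 3, and -0.013 to 0.23 with 1 library left out. Got2 had 0.11 within numbers 1 to 3, 0.0255 with scaling to nuclear protein-coding genes, 0.0106 without Rspo2-AAV 4 and 5, and -0.0965 to 0.0285 with 1 library left out. Pccb had 0.0202 with that scaling, 0.0068 without the Xist libraries, and -0.0748 to 0.0131 with 1 library left out. Cbs (-0.0344) and Amt (-0.35) changed sign within numbers 1 to 3. Prodh2 had 0.48 within numbers 1 to 3, 0.12 without Rspo2-AAV 4 and 5, 0.0171 with the replicate block and 0.0171 in the same libraries without it, 0.0015 with scaling to nuclear protein-coding genes, 0.0035 with the number term, and -0.21 to 0.0402 with 1 library left out.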
